A study of Mus musculus with 15 samples.

Results

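Potassium channel genes were examined in messenger RNA bound to phosphorylated ribosomes of the mouse olfactory epithelium, with and without odour exposure. They were taken by name as every gene in the deposited table whose symbol is Kcn, further letters and a number, except Kcng1. This gave 91 genes of the 57010 in the table, pore-forming and auxiliary subunits together. The mice were wild-type C57BL/6J males 8 weeks of age, housed singly without odour for 4 h and then exposed for 90 min, with 3 mice in each of 5 groups. Control mice were given empty filter paper. A+D mice received acetophenone and decanal on 1 paper, and A&D mice the same odorants on separate papers about 1 mm apart. For O+C the odorants were octanal plus cis-3-hexenol on 1 paper, and for O&C the same on separate papers, with 10 µL of each odorant in all 4 odour groups. RNA was recovered by immunoprecipitation of phosphorylated ribosomal protein S6, which active neurons carry, from the whole tissue. Other cells of the tissue also contribute RNA, and no group received a single odorant.

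Potassium channels let potassium leave the cell or enter it, and so set the resting potential, end depolarizations and limit repetitive firing. Voltage-gated members open on depolarization, calcium-activated members open as calcium rises inside the cell, and inward rectifiers and two-pore-domain members hold the cell near rest. Auxiliary subunits alter the gating or the delivery of the pores they join. In an olfactory sensory neuron an odorant opens cyclic-nucleotide-gated channels and then calcium-activated chloride channels, and potassium channels return the membrane to rest. Supporting cells, glia and vessel cells carry potassium channels of their own, chiefly inward rectifiers.

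The libraries held 22704193 to 25287077 counts each. Levels are given as CPM, counts per 1000000 of the library after TMM scaling. Replicates of a group differed by far more than counting noise, with chi-square values of 12.5 to 78.9 per degree of freedom. One library differed from the rest, A+D 2. Its correlation with the 14 others averaged 0.968, against 0.979 to 0.985 for them, and ribosomal protein genes took 1.97% of it, against 0.816% to 1.38%. The nasal gland transcript Obp2a lay between 0.162 and 2.14 CPM in 5 libraries (O&C 1 and 3, A&D 1, A+D 2, Control 1), against 111 to 525 CPM in the other 10. The mature sensory neuron marker Omp was called higher in O+C and O&C, and all 14 mature neuron markers were present in the libraries.

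Of the 91 genes, 68 had enough counts to be tested. The other 23 lay at or below 0.238 CPM on average, among them both sodium-activated channels, Kcnt1 and Kcnt2, and 5 of the 15 inward rectifiers. One of them, Kcne1, had no count in any library. A mean of 10 CPM or more was reached by 23 genes, 33 lay from 1 to 10 CPM and 35 under 1 CPM. The 12 highest gave 70.8% of the summed level of all 91. They included, in order of mean CPM, Kcnh3, Kcnmb3, Kcnab2, Kcnc4, Kcnmb2, Kcna5, Kcnh4, Kcna2, Kcnj15, Kcnj13 and Kcns3. Among them are voltage-gated pores of the ELK group (Kcnh3, Kcnh4), the Shaker class (Kcna5, Kcna2) and the Shaw class (Kcnc4), and Kcns3, a subunit that forms no channel alone and modifies other pores. Kcnj13 and Kcnj15 are inward rectifiers. Kcnmb3, Kcnmb2 and Kcnab2 are auxiliary subunits, the first pair of the large-conductance calcium-activated channel and the last of Shaker channels.

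Counts grow with transcript length, so the order by CPM is not an order of transcript abundance. Levels were therefore also set per kilobase of annotated exon. On that scale Kcnmb3 was highest with 58.6 CPM per kb, followed by Kcnj13 with 26.8, Kcnh3 with 20.9, Kcnmb2 with 19.9, Kcnc4 with 18.5, Kcna5 with 18.4 and Kcnab2 with 17.1 CPM per kb. Kcnh4 (12.9), Kcnk1 (11.9), Kcns3 (9.91), Kcnj15 (5.94) and Kcnn1 (4.72) completed the first 12. Kcnma1, the pore that Kcnmb subunits join, lay at 1.27 CPM per kb, far below Kcnmb3 and Kcnmb2. The length used was that of all annotated exons of a gene together, 16976 bases for Kcnma1 and 1715 for Kcnmb3. It can exceed the length of the transcript present, which widens such a gap. By CPM the means were 21.5 for Kcnma1, 101 for Kcnmb3 and 62.2 for Kcnmb2. Kcnk1, a two-pore-domain channel, was the highest member of its class on both scales. The counts of 11 genes, Kcnj13, Kcnj15, Kcnma1, Kcnmb4, Kcnh7, Kcnk2, Kcna3, Kcna6 and Kcnn2 among them, were not whole numbers in most libraries, so reads were shared with another gene to an extent that was not measured. In the annotation Kcnh3 shares exon sequence with Mcrs1 and Kcnj13 with Gigyf2, both on the opposite strand, and Kcna6, Kcnab3, Kcne3, Kcnip4, Kcnj15, Kcnn1 and Kcnn2 overlap antisense or uncharacterized genes. Kcnab2 overlaps Gm16334 on the same strand. Whether the counting used strand is not given in the sources used here.

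**Figure D1:**
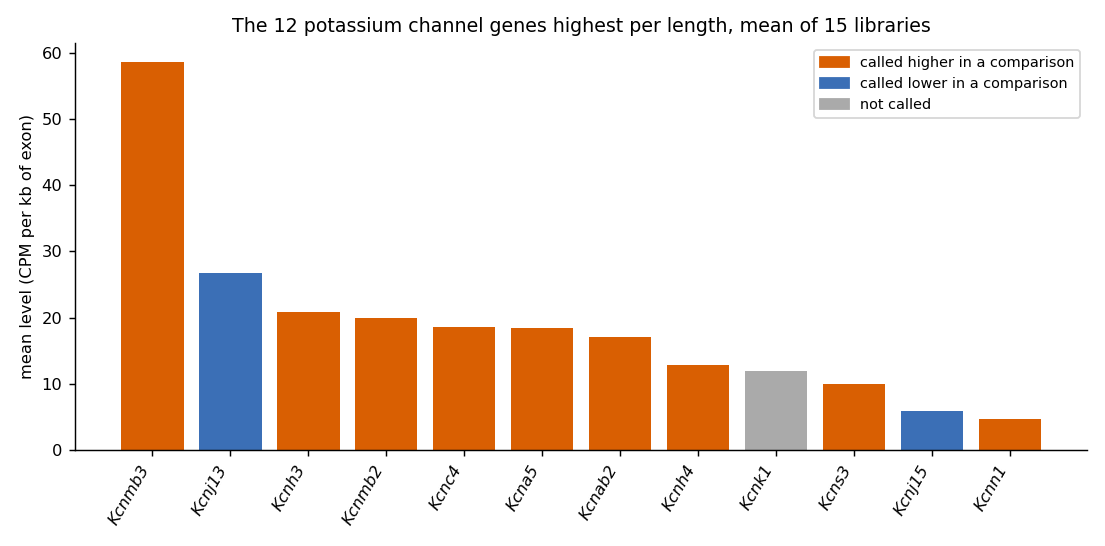
Mean level over 15 libraries in CPM per kb of exon for the 12 potassium channel genes highest on that scale; bars are coloured by whether the gene was called higher, lower or neither in any comparison. Kcnmb3 stands highest at 58.6 CPM per kb, and 9 of the 12 bars belong to genes called higher.

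Mice exposed to octanal with cis-3-hexenol had higher levels of a set of voltage-gated and calcium-activated channel genes and their auxiliary subunits in both deliveries. In O+C 11 of the 68 tested genes were called higher (16.2%, against 5.74% of all tested genes) and 2 lower (2.94% against 2.35%), so that 8.09% of all tested genes were called either way. In O&C 14 were called higher (20.6% against 9.33%) and 5 lower (7.35% against 5.41%). All 11 genes called higher in O+C were also called higher in O&C, although both comparisons use the same Control mice. Calls rest on edgeR's quasi-likelihood test with the Benjamini-Hochberg adjusted p over all 19229 tested genes. The median log2 fold change of the 68 genes was 0.12 in O+C and 0.21 in O&C, beside -0.01 and -0.04 over all tested genes. All 3 mice lay above all Control mice for 24 of the 68 genes in O+C (17.8% of all tested genes) and for 21 in O&C (20.3%), and below them for 10 and 11 (15.2% and 19.6%). The summed level of the 91 genes ran from 790 to 858 CPM in Control, and reached 1130 to 1210 CPM for O+C and 1120 to 1340 CPM for O&C. It ran from 899 to 1030 CPM in A+D and from 935 to 1000 in A&D. The O+C and O&C sums thus lay above those of the other 3 groups in every library.

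The ELK channels, voltage-gated pores of neurons related to the ether-a-go-go family, were among the leading genes. Kcnh3 (ENSMUSG00000037579) stood at 88.2, 77.1 and 73.2 CPM in Control 1, 2 and 3, and at 104, 80.9 and 106 CPM in A+D. It reached 90.0, 109 and 90.4 CPM in A&D, 177, 151 and 148 CPM in O+C, and 169, 152 and 192 CPM in O&C. Every O+C and O&C library lay above every library of the other groups. The log2 fold change was 1.00 ± 0.13 in O+C and 1.1 ± 0.13 in O&C (SE, edgeR adjusted p = 0.000168 and 3.26e-05), and both calls held without each of the 6 libraries. Kcnh4 (ENSMUSG00000035355), a second ELK channel, was even among Control mice at 41.0, 41.1 and 41.5 CPM. It rose to 59.5, 56.6 and 65.7 CPM in O+C and to 62.1, 60 and 77.4 CPM in O&C, with log2 fold changes of 0.56 ± 0.14 and 0.69 ± 0.14 (edgeR adjusted p = 0.0193 and 0.00288). Neither odour group overlapped Control. Kcnh6, an ERG-type channel of the same family, rose from 5.85 ± 0.247 to 11 ± 2.34 CPM in O&C (SD, n = 3; log2 fold change 0.91 ± 0.22, edgeR adjusted p = 0.00912). In O+C Kcnh6 was at 8.5 ± 0.963 CPM and missed the threshold (edgeR adjusted p = 0.142). Kcnh4 in O+C lost its call without any library but O+C 2 (adjusted p up to 0.0728), and Kcnh6 in O&C without O&C 3 (0.0619).

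The Shaker and Shaw classes contributed a gene each to both comparisons. Kcna5 (ENSMUSG00000045534), a Shaker delayed rectifier, was at 36.7, 41.8 and 34.0 CPM in Control and at 46.1, 36.2 and 50.9 CPM in A+D. It was at 48.8, 54.4 and 50.6 CPM in A&D, 63.3, 60.3 and 59.1 CPM in O+C and 58.6, 73.9 and 74.3 CPM in O&C. All 6 octanal and cis-3-hexenol libraries exceeded the 9 others. The log2 fold change was 0.70 ± 0.13 in O+C and 0.88 ± 0.13 in O&C (edgeR adjusted p = 0.00306 and 0.000255), and both calls held without each library. Kcnc4 (ENSMUSG00000027895), a Shaw channel that inactivates fast, rose from 45.3, 41.0 and 48.5 CPM in Control to 79.3, 68.8 and 77.9 CPM in O+C and to 71.0, 78.8 and 89.8 CPM in O&C. Its log2 fold changes were 0.75 ± 0.19 and 0.83 ± 0.19 (edgeR adjusted p = 0.0203 and 0.00657). For Kcnc4 the A+D mice stood at 45.4, 91.0 and 70.1 CPM and the A&D mice at 79.8, 73.1 and 59.0 CPM, so that these groups reached the same range. Kcna6, a second Shaker gene, rose in O&C from 11.6 ± 0.583 to 17.9 ± 3.24 CPM (log2 fold change 0.62 ± 0.19, edgeR adjusted p = 0.0322), with shared reads. The Kcnc4 call in O+C was lost without O+C 1, O+C 3, Control 1 or Control 2 (adjusted p up to 0.0935), and the Kcna6 call in O&C without any library but O&C 1 (up to 0.154).

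Kcns3 (ENSMUSG00000043673), the silent subunit, was at 22.3, 24.4 and 22.8 CPM in Control. It rose to 40.6, 33.8 and 36.8 CPM in O+C and to 36.6, 43.8 and 46.4 CPM in O&C, with log2 fold changes of 0.68 ± 0.18 and 0.87 ± 0.18 (edgeR adjusted p = 0.0309 and 0.00447). No odour library of these groups fell within the Control range. The other 4 tested silent subunits, Kcnf1, Kcng2 and their relatives, were not called in any comparison. The Kcns3 call in O+C was lost without any library but O+C 2 (adjusted p up to 0.142).

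**Figure D2:**
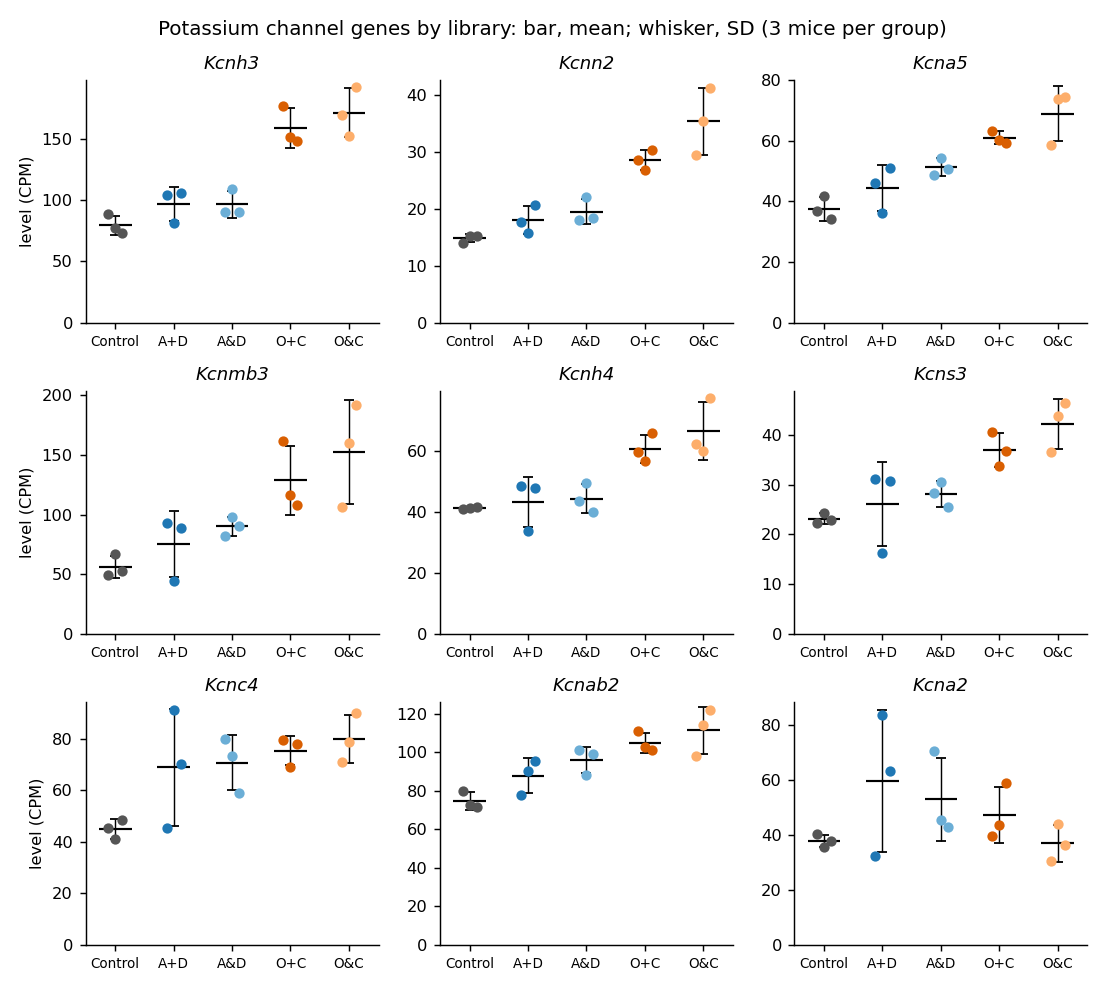
Level in CPM of 9 potassium channel genes in each library, by group; points are mice, the bar is the group mean and the whisker the SD. Kcnh3, Kcna5, Kcnn2, Kcnh4 and Kcns3 are higher in all 6 O+C and O&C libraries than in the 9 others, while Kcnc4 reaches the same range in all 4 odour groups and Kcna2, which was not called, is highest in A+D 2 at 83.7 CPM.

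Small-conductance calcium-activated channels, which open on internal calcium and lengthen the pause after a burst, also rose. Kcnn2 (ENSMUSG00000054477) stood at 14.0, 15.2 and 15.3 CPM in Control, at 17.7, 15.7 and 20.6 CPM in A+D and at 18.1, 22 and 18.3 CPM in A&D. It reached 28.5, 26.9 and 30.3 CPM in O+C and 29.5, 35.5 and 41.3 CPM in O&C. The log2 fold change was 0.95 ± 0.14 in O+C and 1.26 ± 0.14 in O&C (edgeR adjusted p = 0.000524 and 1.81e-05), and both calls held without each of the 6 libraries. Kcnn2 thus about doubled in O+C, where the fitted fold was 1.93, and the fold was 2.39 in O&C. Kcnn1 (ENSMUSG00000002908) rose less, from 18.5, 20.4 and 14.6 CPM in Control to 26.3, 25.4 and 26.8 CPM in O+C and to 25.3, 24.2 and 30.1 CPM in O&C. Its log2 fold changes were 0.55 ± 0.14 and 0.57 ± 0.14 (edgeR adjusted p = 0.0196 and 0.00972). The Kcnn1 call was lost in O+C without O+C 1, O+C 3, Control 1 or Control 3 (adjusted p up to 0.102) and in O&C without Control 3 or O&C 3 (up to 0.0603). The remaining members of this class, Kcnn3 and Kcnn4, were not called in any comparison.

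Auxiliary subunits were called higher as well. Kcnmb3 (ENSMUSG00000091091), a subunit of the large-conductance calcium-activated channel, had the largest rise of the potassium channel genes called in O+C and in O&C. It went from 49.0, 66.8 and 52.4 CPM in Control to 162, 116 and 108 CPM in O+C and to 106, 160 and 192 CPM in O&C. The spread between mice was wide, yet no library of either group overlapped Control. Its log2 fold changes were 1.2 ± 0.27 and 1.45 ± 0.27 (edgeR adjusted p = 0.0135 and 0.00253). Kcnmb2, a relative that inactivates the channel, rose from 48.8 ± 3.29 CPM in Control to 70.1 ± 6.11 in O+C and 75.6 ± 12.8 in O&C (SD, n = 3; edgeR adjusted p = 0.0418 and 0.00965). The pore Kcnma1 was at 21.2, 15 and 14 CPM in Control and at 29.9, 23.2 and 29.3 CPM in O+C. With a log2 fold change of 0.71 ± 0.22 in O+C and 0.37 ± 0.22 in O&C it missed the threshold (edgeR adjusted p = 0.0569 and 0.276). The Kcnmb3 call in O+C was lost without Control 1, Control 3 or O+C 1 (adjusted p up to 0.0718), that of Kcnmb2 in O+C without any 1 of the 6 libraries (up to 0.161) and in O&C without O&C 3 (0.0634).

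Of the 7 tested cytoplasmic auxiliary subunits of the Kcnab and Kcnip kinds, 2 were called higher in O+C and 3 in O&C. The shares over all tested genes were 5.74% and 9.33%. Kcnab2 (ENSMUSG00000028931), which binds Shaker pores, was at 80.1, 72.8 and 71.5 CPM in Control, 111, 103 and 101 CPM in O+C and 98.2, 114 and 122 CPM in O&C. Its log2 fold changes of 0.49 ± 0.11 and 0.58 ± 0.11 were small and passed the threshold (edgeR adjusted p = 0.0108 and 0.00209). Kcnip4, a calcium-binding subunit of Shal channels, was at 7.56, 9.45 and 8.14 CPM in Control, 12.8, 12.2 and 11.1 CPM in O+C and 13.0, 13.7 and 13.0 CPM in O&C (log2 fold change 0.52 ± 0.14 and 0.66 ± 0.14, edgeR adjusted p = 0.0323 and 0.00542). Its partner pore Kcnd1 was at 1.05 CPM on average and was not called. Kcnab3 rose in O&C from 5.80 ± 0.908 to 9.90 ± 2.51 CPM (edgeR adjusted p = 0.0179) and missed the threshold in O+C (0.079). The Kcnab2 call in O+C was lost without Control 3 or O+C 1 (adjusted p up to 0.0594), that of Kcnip4 in O+C without O+C 1, O+C 2, Control 1 or Control 3 (up to 0.131) and that of Kcnab3 in O&C without Control 3 or O&C 1 (up to 0.0881).

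The rise ran beside one of mature sensory neuron markers. Of 14 such markers (Omp, Gnal, Adcy3 and others) 13 were called higher in O+C and 13 in O&C, with median log2 fold changes of 0.78 and 0.94. Their summed level was 9770 to 10800 CPM in Control, 11400 to 13900 for A+D, 13700 to 16900 for A&D, 16300 to 19600 for O+C and 16400 to 22300 for O&C, and none of the 14 was at 0. Of the potassium channel genes called higher, 3 of 11 in O+C and 3 of 14 in O&C had a log2 fold change above that median, in both cases Kcnh3, Kcnn2 and Kcnmb3. More neurons in the precipitate and more transcript per neuron cannot be told apart in bulk RNA, and the part of the markers' rise in the channel results was not tested. Immature neuron markers had medians of -0.05 and -0.08, with 1 of 7 called higher in O+C and none in O&C.

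Promoter sequence is shown for some of the genes called higher, and a shared control of these genes was not tested. Of the 91 genes 67 had an entry in RefSeq's promoter table (GRCm38.p6), with 92 start sites in all. The 250 bases before each start were searched for CCCNNGGG, the palindromic core bound by the EBF factors of sensory neurons, for the homeodomain core TAATTA and for the cyclic-AMP response element TGACGTCA. Each of these reads the same on both strands. Of the genes called higher, 11 had an entry. CCCNNGGG was found at 4 of their 16 starts (25%), at none of the 10 starts of genes called lower, and at 11.8% of all 32851 promoters in the table. Kcnh3, Kcna5, Kcnn2 and Kcnmb3 were not among the genes with a match. Not every gene called higher had an entry, and a gene without one could not match. Over all potassium channel genes it was at 14 of the 92 starts (15.2%), and 10 of the 14 genes with it were not called higher. TAATTA and TGACGTCA were in none of the 92 windows, and in 4.84% and 1.55% of all promoters. The 4 windows with the EBF core are printed 5′ to 3′ on the gene's own strand, ending at the base before the start, with the matched bases in capitals.
Kcnc4, minus strand, chr3:107458899-107459148: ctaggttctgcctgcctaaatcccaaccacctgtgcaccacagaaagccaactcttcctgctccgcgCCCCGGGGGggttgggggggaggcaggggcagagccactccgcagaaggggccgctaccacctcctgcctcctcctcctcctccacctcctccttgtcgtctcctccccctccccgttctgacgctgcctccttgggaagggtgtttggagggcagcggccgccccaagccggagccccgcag
Kcnh4, minus strand, chr11:100759779-100760028: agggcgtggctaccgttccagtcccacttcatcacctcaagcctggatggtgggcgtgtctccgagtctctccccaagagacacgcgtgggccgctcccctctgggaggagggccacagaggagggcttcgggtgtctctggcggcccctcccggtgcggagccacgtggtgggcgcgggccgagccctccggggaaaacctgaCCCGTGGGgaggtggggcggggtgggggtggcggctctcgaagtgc
Kcnh6, plus strand, chr11:106007898-106008147: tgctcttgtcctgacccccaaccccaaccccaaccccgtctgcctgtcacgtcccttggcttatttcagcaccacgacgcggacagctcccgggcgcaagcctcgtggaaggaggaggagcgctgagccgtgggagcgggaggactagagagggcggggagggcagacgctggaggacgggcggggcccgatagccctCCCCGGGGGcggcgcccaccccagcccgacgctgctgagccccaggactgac
Kcnip4, minus strand, chr5:48599683-48599932: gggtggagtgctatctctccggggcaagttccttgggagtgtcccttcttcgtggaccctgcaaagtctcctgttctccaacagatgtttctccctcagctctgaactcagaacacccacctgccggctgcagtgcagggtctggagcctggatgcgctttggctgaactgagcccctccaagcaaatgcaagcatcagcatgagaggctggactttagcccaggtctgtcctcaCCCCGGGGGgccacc
In Kcnip4 and Kcnh4 the first match began 15 and 46 bases before the start, in Kcnh6 52 and in Kcnc4 183 bases before it. In Kcnc4, Kcnh6 and Kcnip4 the capitals hold 2 matches that overlap, offset by 1 base. For Kcnip4 this was 1 of 2 listed starts. A match is a run of letters and was not measured as binding in these data.

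Called lower in the octanal and cis-3-hexenol mice were a few inward rectifiers and a Kcne subunit. They were 2 of 68 tested genes in O+C (2.94% against 2.35% of all tested genes) and 5 in O&C (7.35% against 5.41%). These shares were near those of all tested genes, so the lower calls are not read as a property of potassium channel genes. Kcnj8, Kcne3 and Kcnj16 were of low level, while Kcnj13 and Kcnj15 were among the 12 highest. Kcnj8 (ENSMUSG00000030247), the pore of an ATP-sensitive channel of vessel-wall cells, was at 2.63, 2.03 and 1.69 CPM in Control, 0.646, 0.883 and 0.545 CPM in O+C and 0.824, 0.615 and 0.801 CPM in O&C. It fell by 1.61 ± 0.39 on the log2 scale in O+C and by 1.5 ± 0.39 in O&C (edgeR adjusted p = 0.0178 and 0.0159). The A+D mice, at 0.881, 0.974 and 0.367 CPM, and the A&D mice, at 0.855, 1.68 and 0.877 CPM, also lay below every Control mouse without passing the threshold. Beside it, of 8 pericyte and smooth muscle markers, 1 (Rgs5) was called lower in each of O+C and O&C, with list medians of -0.48 and -0.29. Their summed level was 568 to 650 CPM in Control, 313 to 475 in A+D, 358 to 481 in A&D, 344 to 501 in O+C and 357 to 478 in O&C, and none was at 0. Of 6 endothelial markers, 2 in O+C and 1 in O&C were called lower, with medians of -0.92 and -0.24 and none at 0. Their summed level was 18.4 to 22.9 CPM in Control, 16.7 to 20.3 in A+D, 14.6 to 19.4 in A&D, 11.9 to 15.7 in O+C and 15.2 to 18.4 in O&C. Abcc9, the partner subunit of Kcnj8, was not called (log2 fold change -1.02 ± 0.63 in O+C, edgeR adjusted p = 0.354). The part of these vessel markers in the Kcnj8 result was not tested. The Kcnj8 call was lost in O+C without Control 1, O+C 1 or O+C 3 (adjusted p up to 0.0868) and in O&C without Control 1, O&C 2 or O&C 3 (up to 0.0718).

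Kcne3, an auxiliary subunit that keeps the epithelial channel Kcnq1 open, was at 4.08, 3.07 and 3.51 CPM in Control, 2.11, 1.73 and 1.28 CPM in O+C and 2.08, 2.34 and 1.2 CPM in O&C. It fell by 1.06 ± 0.27 and by 0.92 ± 0.27 on the log2 scale (edgeR adjusted p = 0.0232 and 0.029). In A+D (1.80, 2.04 and 2.24 CPM) and A&D (1.84, 2.07 and 2.27 CPM) it was likewise under every Control value, and those comparisons gave edgeR adjusted p of 0.252 and 0.226. All 12 odour libraries therefore lay below the 3 Control libraries for Kcne3. Kcnq1 moved the other way by value, with a log2 fold change of 0.48 ± 0.19 in O+C (edgeR adjusted p = 0.143). The Kcne3 call was lost in O+C without O+C 2, O+C 3, Control 1 or Control 3 (adjusted p up to 0.105) and in O&C without O&C 1, O&C 3, Control 1 or Control 3 (up to 0.172).

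Kcnj16, which pairs with Kcnj10 in glial and epithelial cells, was at 4.08, 3.55 and 2.93 CPM in Control and at 1.60, 1.56 and 2.14 CPM in O&C (log2 fold change -1 ± 0.26, edgeR adjusted p = 0.0163). Its O+C values of 2.41, 2.45 and 1.40 CPM were also below Control and missed the threshold (0.081). Kcnj13, an inward rectifier of transporting epithelia, was at 53.0, 42.0 and 35.0 CPM in Control and at 31.3, 34.4 and 21.9 CPM in O&C (-0.57 ± 0.18, edgeR adjusted p = 0.0386). Kcnj15, at 52.5, 44.5 and 40.8 CPM in Control and 27.4, 38.6 and 27.0 CPM in O&C, gave -0.57 ± 0.17 (edgeR adjusted p = 0.0318). The last pair share reads with other genes. Of 7 sustentacular cell markers, 2 in O+C and 3 in O&C were called lower, with medians of -0.44 and -0.42. Their summed level was 2560 to 3030 CPM in Control, 2190 to 2610 in A+D, 1880 to 2330 in A&D, 1770 to 2110 in O+C and 1790 to 2130 in O&C, and none of the 7 was at 0. Of 10 immune cell markers, 5 in O+C and 6 in O&C were called lower, with medians of -0.85 and -0.87. Their summed level was 758 to 1130 CPM in Control, 564 to 1000 in A+D, 615 to 1200 in A&D, 447 to 518 in O+C and 441 to 597 in O&C. Of 5 red blood cell markers 0 were called lower in O+C and 5 in O&C, with medians of -0.45 and -0.87. Their summed level was 18000 to 28700 CPM in Control, 21700 to 31000 in A+D, 17100 to 32900 in A&D, 13600 to 20500 in O+C and 10100 to 14300 in O&C, and no immune or red blood cell marker was at 0. The part of these 3 lists in the results for the lower genes was not tested. The Kcnj16 call in O&C was lost without Control 1, O&C 1 or O&C 2 (adjusted p up to 0.0717), and those of Kcnj13 and Kcnj15 without O&C 1, O&C 3, Control 1 or Control 2 (up to 0.217 and 0.163).

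**Figure D3:**
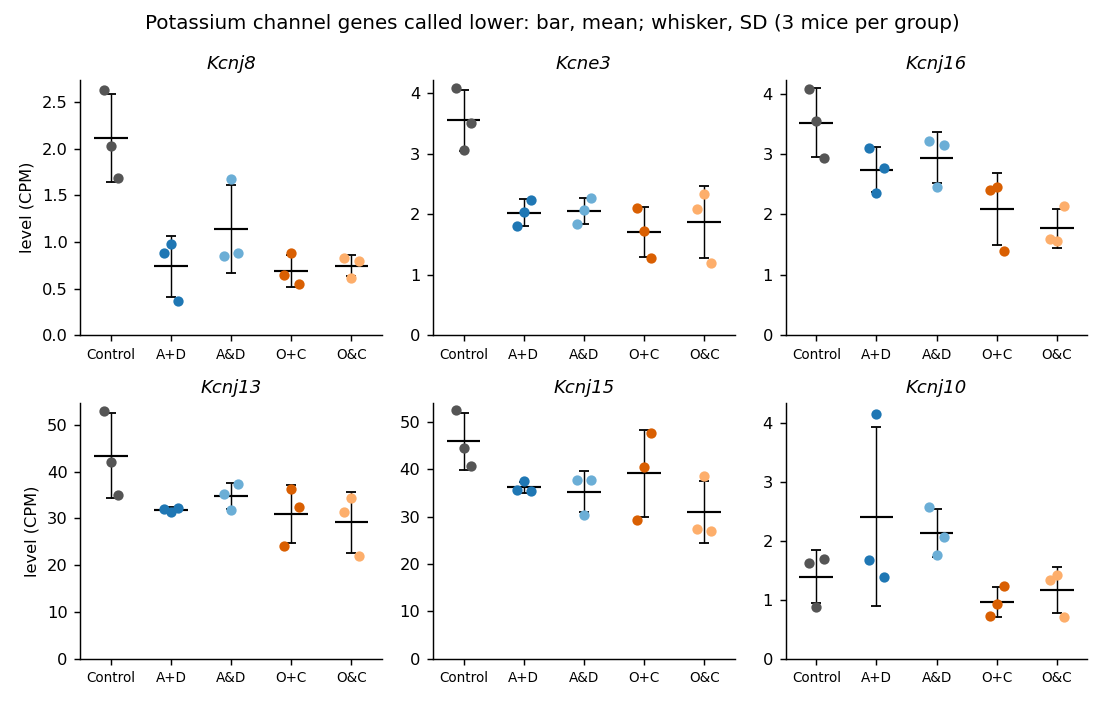
Level in CPM of the 6 potassium channel genes called lower in any comparison, in each library; points are mice, the bar is the group mean and the whisker the SD. For Kcnj8 and Kcne3 all 12 odour libraries lie below the 3 Control libraries, and Kcnj10 is highest in A+D 2 at 4.16 CPM.

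Counts of calls over the O+C comparison depended on single mice. The count of 11 genes called higher became 5 without Control 1 (4 of the 11, and Kcnma1 newly called), 7 without Control 2, 4 without Control 3, 3 without O+C 1, 9 without O+C 2 and 6 without O+C 3. The 3 that held throughout were Kcnh3, Kcna5 and Kcnn2. In O&C the higher count lay between 10 and 14, and 9 genes held throughout, namely Kcnh3, Kcnh4, Kcna5, Kcnc4, Kcns3, Kcnn2, Kcnmb3, Kcnab2 and Kcnip4. The 5 lower genes of O&C became 0 without Control 1, 3 without Control 2, 4 without Control 3, 1 without O&C 1 or O&C 3 and 3 without O&C 2. The 2 lower genes of O+C became 0 without Control 1 or O+C 3, and 1 without Control 3, O+C 1 or O+C 2.

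**Figure D4:**
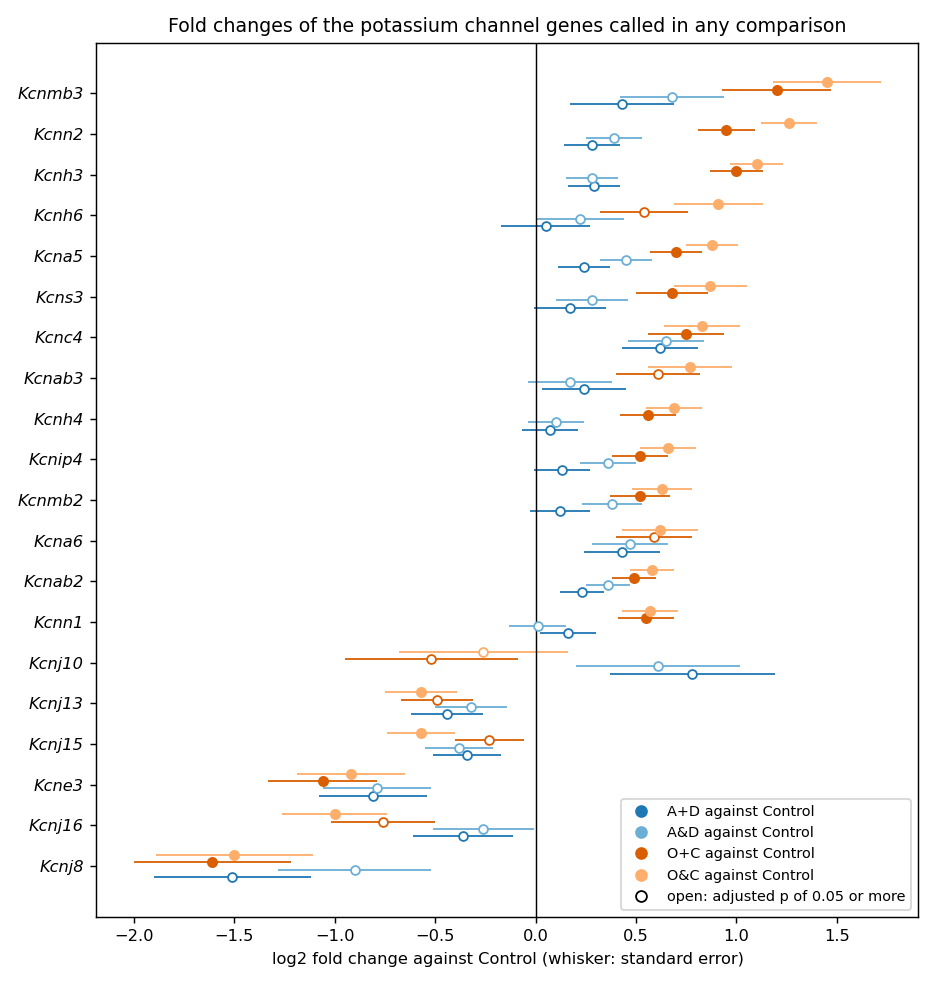
Log2 fold change against Control, with its standard error, of the 20 potassium channel genes called in any comparison, for each of the 4 odour groups; filled points passed an adjusted p of 0.05 and open points did not. For the 14 genes called higher the O+C and O&C points lie to the right of the A+D and A&D points, and every A+D and A&D point is open.

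Acetophenone with decanal gave no called potassium channel gene in either delivery. In A+D 0 of the 68 genes were called higher and 0 lower (against 0.296% and 0.026% of all tested genes, 0.322% together, edgeR). At an unadjusted edgeR p under 0.05 were 14 of the 68, against 13.7% of all tested genes. DESeq2 called 1 of the 68 lower, Kcnj8, and 102 of all 19229 tested genes lower. In A&D 0 were called higher and 0 lower (against 1% and 0.0208%, 1.02% together, edgeR). Here 19 of the 68 were at an unadjusted edgeR p under 0.05, against 11.9% of all tested genes. DESeq2 called 1 of the 68 higher, Kcnc4, and 355 of all 19229 tested genes higher. The median log2 fold changes were 0.15 and 0.06. A gene was higher in all 3 mice than in all Control mice in 4 cases for A+D (8.13% of all genes) and in 13 for A&D (11.6% of all genes), and lower in 9 and 11 cases (6.72% and 8.87%). The 13 in A&D included Kcnh3, Kcna5, Kcnn2, Kcnab2, Kcnc4, Kcnmb2, Kcnmb3, Kcns3 and Kcnip4. Kcna5 had a log2 fold change of 0.24 ± 0.13 in A+D and 0.45 ± 0.13 in A&D (edgeR adjusted p = 0.412 and 0.126), Kcnn2 0.28 ± 0.14 and 0.39 ± 0.14 (0.396 and 0.25), and Kcnh3 0.29 ± 0.13 and 0.28 ± 0.13 (0.349 and 0.407). The intervals of 2 SE around these values, from 0.02 to 0.54 for Kcnh3 in A&D and from 0.19 to 0.71 for Kcna5 in A&D, leave room for rises that the test did not call.

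A+D 1 set the count in A+D. Without it 4 genes were called higher, Kcna6, Kcnc4 and Kcna2 among them. For Kcna2, a Shaker channel of axons, the A+D mice were at 32.3, 83.7 and 63.4 CPM against 40.2, 35.7 and 37.8 CPM in Control. A+D 2, the library with the high ribosomal protein share, was the highest of all 15 for Kcna2, Kcnc4 and Kcnj10. It was the lowest of all 15 for Kcnmb3 (43.8 CPM), Kcnmb2 (40.3), Kcns3 (16.3), Kcnh4 (33.6) and Kcnh6 (3.85 CPM).

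The octanal and cis-3-hexenol pair was tested directly against the acetophenone and decanal pair, each over both deliveries and 6 mice, a comparison free of the shared Control mice. It called 12 of the 68 genes higher (17.6%, against 9.03% of all tested genes) and 2 lower (2.94% against 6.74%). Kcnh3 and Kcnn2 led, with log2 differences of 0.77 ± 0.09 and 0.77 ± 0.10 (edgeR adjusted p = 3.26e-05 and 7.62e-05), and Kcnmb3 was also 0.77 higher (± 0.19, 0.0137). Kcnh6 (0.59), Kcns3 (0.55), Kcnh4 (0.54), Kcnn1 (0.48) and Kcna5 (0.44) followed, with edgeR adjusted p from 0.00168 to 0.0155. These 8 genes held their calls without each of the 12 libraries, A+D 2 among them, and for each the lowest octanal library exceeded the highest acetophenone library. Complete separation of this kind was seen for 9 of the 68 genes in this direction, against 4.66% of all tested genes, and for none in the other, against 3.25%. Kcnab3 (0.48), Kcnip4 (0.35), Kcnmb2 (0.33) and Kcnab2 (0.24) were also higher, with edgeR adjusted p from 0.027 to 0.0472.

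Among these, Kcnab3 lost its call without A+D 3, A&D 1, O+C 1, O+C 3 or O&C 1 (adjusted p up to 0.0879), and Kcnip4 without A+D 3, A&D 1, A&D 2, O+C 1, O+C 2 or O&C 2 (up to 0.0686). Kcnmb2 lost its call without 7 of the 12 libraries, A+D 2, A&D 1, A&D 3, O+C 1, O+C 2, O&C 2 and O&C 3 (up to 0.111). Kcnab2 lost it without 8, A+D 1, A&D 1, A&D 2, A&D 3, O+C 1, O+C 2, O&C 2 and O&C 3 (up to 0.109). The mature neuron markers were higher as well, 11 of 14 called, with a median of 0.44, and their part was not tested. Of the 12 potassium channel genes called higher here, 8 had a log2 difference above that median. These were Kcnn1, Kcnab3, Kcnh4, Kcns3, Kcnh6, Kcnh3, Kcnn2 and Kcnmb3. The difference was small for Kcnc4 (0.15 ± 0.13, interval -0.11 to 0.41, edgeR adjusted p = 0.449) and for Kcna6 (0.16 ± 0.13, interval -0.11 to 0.42, 0.448). Likewise Kcne3 (-0.19 ± 0.20, 0.535) and Kcnj8 (-0.35 ± 0.29, 0.437) did not pass between the odorant pairs, with intervals of -0.58 to 0.20 and -0.93 to 0.23.

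Called lower in the octanal pair were Kcnj10 and Kcnj16, 2.94% of the 68 tested channel genes against 6.74% of all tested genes. Kcnj10, the inward rectifier of glia, was at 1.68, 4.16 and 1.39 CPM in A+D and 2.57, 1.76 and 2.07 CPM in A&D, and at 0.732, 0.924 and 1.24 CPM in O+C and 1.34, 1.43 and 0.712 CPM in O&C. Control mice, at 1.62, 0.877 and 1.69 CPM, overlapped both pairs, and the pairs overlapped each other. The log2 difference was -1.09 ± 0.29 (edgeR adjusted p = 0.0195), and -0.74 at the smallest when single libraries were left out. Its call was lost without A+D 2, A&D 1, O+C 1 or O&C 3 (adjusted p up to 0.0604). Kcnj16 gave -0.57 ± 0.18 (edgeR adjusted p = 0.0459), and lost its call without any library but A+D 2, A&D 2 and O+C 2 (up to 0.104). None of 7 markers of ensheathing glia and Schwann cells was called in this comparison, with a median of -0.42. Their summed level ran from 121 to 126 CPM in Control, 87.7 to 156 in A+D, 86.6 to 119 in A&D, 67.5 to 84.3 in O+C and 71.4 to 122 in O&C, with none at 0. Of 10 immune cell markers 7 were called lower in this comparison (median -0.72), and of 5 red blood cell markers 4 (median -0.82). Their part in the Kcnj10 and Kcnj16 results was not tested.

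Delivery from 1 paper or from separate papers made no called difference. A+D against A&D called 0 of the 68 genes (against 0.12% of all tested genes, edgeR) and 0 by DESeq2. At an unadjusted edgeR p under 0.05 were 5 of the 68, against 3.91% of all tested genes. O+C against O&C called 0 (against 0%, edgeR) and 0 by DESeq2, with 2 at an unadjusted edgeR p under 0.05 (3.98% of all tested genes). The difference between the delivery effects called 0 (against 0.0104%, edgeR) and 0 by DESeq2. Of the 68 genes 5 were at an unadjusted edgeR p under 0.05 there, against 2.69% of all tested genes. The groups of 3 did not overlap for 5 higher and 0 lower genes in A+D against A&D (3.38% and 3.74% of all tested genes), and for 2 and 2 in O+C against O&C (5.91% and 5.05%). For Kcnh3 the difference of O+C from O&C was -0.11 ± 0.13, with an interval of 2 SE from -0.37 to 0.15. For Kcnn2 it was -0.31 ± 0.14, with an interval from -0.59 to -0.03 and edgeR adjusted p = 1.0. For Kcnmb3 it was -0.25 ± 0.26, with an interval from -0.77 to 0.28, which leaves room for a difference of either sign. Kcnj3, a G-protein-gated inward rectifier, had the lowest adjusted p in A+D against A&D, with a log2 difference of 1.09 ± 0.31 (edgeR adjusted p = 0.834). It is outside the naming rule and was picked after its value was seen.

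Several abundant members were not called in any comparison. Kcnk1, a leak channel, lay between 21.0 and 34.4 CPM in the 15 libraries, with log2 fold changes of -0.29 ± 0.15 in O+C and -0.21 ± 0.15 in O&C (edgeR adjusted p = 0.273 and 0.39). Kcnk10, another leak channel, which is outside the naming rule and was picked after its values were seen, lay between 20.1 and 28.1 CPM. Its log2 fold changes of 0.23 ± 0.14 in O+C and 0.15 ± 0.14 in O&C had intervals of -0.05 to 0.52 and -0.14 to 0.43. No gene of the two-pore-domain class (9 tested), KCNQ (4), Shal (2) or the large-conductance pores (2) was called in any of the 8 comparisons. Called higher in O&C were 3 of 7 tested EAG, ERG and ELK genes, 2 of 6 Shaker, 1 of 3 Shaw, 1 of 5 silent, 2 of 4 small- and intermediate-conductance calcium-activated, 3 of 7 Kcnab and Kcnip, and 2 of 4 Kcnmb genes. Called lower were 4 of 10 inward rectifiers and 1 of 3 Kcne genes. Over all tested genes 9.33% were called higher and 5.41% lower in O&C. No class held genes called in both directions there. With 5 lower genes in all, and 0 of them without Control 1, this says little about the classes.

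Other genes of potassium handling were counted over a list of 25, of which 20 were tested. In O+C 6 were called higher and 1 lower, in O&C 7 and 1, and between the pairs 5 and 2. Over all tested genes the shares called higher and lower were 5.74% and 2.35% in O+C and 9.33% and 5.41% in O&C. Between the pairs they were 9.03% and 6.74%. None of the 20 was called in A+D or A&D by edgeR (against 0.322% and 1.02% of all tested genes). The hyperpolarization-activated channel Hcn2 rose by 0.84 ± 0.16 on the log2 scale in O+C and by 0.87 ± 0.16 in O&C (edgeR adjusted p = 0.00349 and 0.00139). Atp1b1, a subunit of the sodium pump that restores potassium to the cell, rose by 0.83 ± 0.16 and 1.11 ± 0.16 (edgeR adjusted p = 0.00345 and 0.000161). Amigo1, an auxiliary subunit of voltage-gated channels, rose by 0.55 ± 0.16 and 0.68 ± 0.16 (edgeR adjusted p = 0.0413 and 0.00884). Kcnrg, a regulator that holds Shaker-type subunits back from assembly, fell by 0.54 ± 0.14 and by 0.69 ± 0.14 on the log2 scale (edgeR adjusted p = 0.0206 and 0.00298). The list's median log2 fold change was 0.41 for O&C, 0.14 for O+C, 0.08 for A+D and -0.04 for A&D.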

How the data were processed

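The authors deposited 1 table of expected counts (estimated counts that need not be whole) per Ensembl gene, not normalized, with 1 column for each of the 15 libraries. STAR 2.7.10b, Salmon 1.10.1, R 4.4.2 and build GRCm39 are named, per the submitters' processing notes. The annotation and strand setting are not given in the sources used here. Symbols (52029 of 57010 identifiers matched) and exon lengths came from GENCODE vM21 on GRCm38, so positions are given only for promoter sequences. Counts were rounded. Genes were kept by filterByExpr (minimum count 10), scaled by TMM and tested with edgeR 4.0.16 in R 4.3.3, robust quasi-likelihood, 1 mean per group over all 15 libraries, Benjamini-Hochberg over 19229 genes, two-sided, threshold 0.05. The biological coefficient of variation was 0.183. Standard errors were taken as |log2 fold change| over sqrt(F). The fit was also run on simulated counts in which every gene had the same spread. Such a run checks the code and not how well the fit suits these libraries. Alternatives were DESeq2 1.42.0, its size factors, no filter, a replicate block, a gland transcript term (Obp2a under 10 CPM) and leaving out each library.

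Named genes were those called (up to 15 per direction and comparison), the 12 highest by CPM and per length, and the most abundant of each of 15 classes. Some genes that meet this rule are not reported here. Members, gene lists and tests were chosen with earlier results of these data known. The labels call the 3 samples of a group biological replicates, and each is taken as 1 mouse. Same-numbered libraries did not deviate together (median correlation -0.0377 over 30 pairs, 3 of them over 0.1), so the numbers were not taken as pairs.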

Additional observations from a re-analysis of the deposited data

How the results depend on the processing

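All 46 calls of single genes kept their direction under each alternative. DESeq2 kept all 46 calls, DESeq2 size factors and the gland transcript term 45 each, and no filter on low counts 42. With the replicate block, whose numbers did not pair the libraries, 37 calls were kept, and only 1 of 15 libraries correlated best with its own number. With the block, 9 genes were called higher in O+C (8 of the 11 without it, and Kcna6 newly called), 14 higher and 3 lower in O&C (14 and 5) and 9 higher and 1 lower between the odorant pairs (12 and 2). Between the pairs, DESeq2 size factors gave 1 lower gene. DESeq2 gave 1 lower gene in A+D and 1 higher in A&D. Without a filter on low counts there were 3 higher and 2 lower genes in A+D, 4 higher in A&D, 1 lower in O+C against O&C and 2 lower in the difference of delivery effects. Over the fits without 1 library, the higher count ran from 0 to 4 in A+D, 3 to 9 in O+C, 10 to 14 in O&C and 8 to 12 between the pairs, and the lower count from 0 to 2 in O+C, 0 to 4 in O&C and 0 to 2 between the pairs. It was 0 in every such fit for A&D, for both delivery comparisons and for their difference. Over all genes, DESeq2 called 133 higher and 102 lower in A+D (edgeR 57 and 5), 355 and 84 in A&D (193 and 4) and 827 lower in O+C (451). Without a filter, 581 higher and 304 lower were called in A+D, 477 and 133 in A&D, 799 lower in O+C, 70 and 138 in A+D against A&D, 90 and 114 in O+C against O&C and 78 and 126 for the difference of delivery effects. The replicate block left 1 lower gene in A+D, 2 lower in A&D and 291 lower in O+C, and the gland term gave 10 lower in A+D and 8 lower in A&D. The cause of these shifts was not tested. Groups of 3 mice limit the precision, with a median standard error of 0.26 on the log2 scale per gene against Control.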
